A study of Mus musculus with 2 samples.

Results

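Myc, the 3 D cyclins (Ccnd1, Ccnd2 and Ccnd3), cyclin E1 (Ccne1), the kinases Cdk4 and Cdk6 and the inhibitors Cdkn1a and Cdkn1b were examined in liver sinusoidal endothelial cells (LSECs) with and without Maf. They were taken by symbol, and all 9 were found among the 32285 genes counted in each library, 1 row a gene. The measurement was single-cell RNA sequencing with the 10x 3′ chemistry, in which each captured molecule is counted once as a unique molecular identifier (UMI). There was 1 library per condition, and each library came from the pooled livers of 3 mice. Maf LSEC-KO mice carried a Clec4g-iCre transgene (Clec4g-iCre tg/wt) together with Maf fl/fl, and controls were Cre-negative littermates (Clec4g-iCre wt/wt) with Maf fl/fl or Maf fl/wt, which the labels call WT. The Clec4g promoter drives iCre in LSECs, active from late fetal life, so that Maf was lost well before adulthood. Livers were perfused with collagenase, non-parenchymal cells were taken from a density gradient, and CD146-positive cells were enriched on magnetic beads. Age and sex of the pooled mice are not given in the sources used here. With 1 library per condition, no difference between conditions could be tested, and the 95% intervals below cover counting error only, not the spread between mice.

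A cell leaves quiescence when growth signals raise Myc, a transcription factor that drives ribosome production and growth, and the D cyclins, which activate CDK4 and CDK6. These kinases phosphorylate the retinoblastoma protein and release E2F factors, whose targets include cyclin E1, the partner of CDK2 at the entry into S phase. p21 (Cdkn1a), a target of p53, and p27 (Cdkn1b), a target of FoxO factors, block CDK2 and also bind the D cyclin complexes. LSECs of the adult liver rarely divide, and regain cell cycle entry during regeneration after loss of liver tissue.

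In total 47681895 UMIs were counted over 5664 barcodes in the control library and 89872764 UMIs over 7091 barcodes in the other, and 10 barcodes occurred in both. After filters and removal of likely doublets, 4091 control and 3157 Maf LSEC-KO cells in endothelial clusters without a Vwf UMI were taken as LSECs. Their medians were 8403 and 14024 UMIs. The study left out cells with Vwf to remove those of larger vessels. Levels are given as CPM, a gene's UMIs summed over cells and scaled to 1000000 UMIs outside mitochondrial and ribosomal protein genes. All 14 endothelial markers exceeded 10 CPM in both libraries. All 6 LSEC markers also exceeded 10 CPM in both, and their sum was 11868 CPM in control and 4431 CPM in Maf LSEC-KO cells. Stab2 stood at 1635 and 178 CPM, Fcgr2b at 2506 and 233 CPM, Clec4g at 3016 and 1516 CPM and Oit3 at 1432 and 1381 CPM. The label LSEC was given from the general endothelial markers, the sort and the lack of a Vwf UMI. LSEC markers remained in the mutant at a lower sum. Macrophage markers summed to 70.3 and 112 CPM in the LSECs of the libraries (3 and 5 of 10 above 10 CPM, 0 at 0), neutrophil or monocyte markers to 80.5 and 181 CPM, and erythroid markers, of which 0 of 6 were at 0, to 1254 and 13.03 CPM. The hepatocyte, stellate, cholangiocyte, B cell and T or NK cell lists summed to between 1.22 and 141 CPM, and the part of such RNA in the results was not tested. Maf itself measured 3470 CPM in control and 121 CPM in Maf LSEC-KO LSECs, 28.7-fold lower. Cells with a UMI of Mki67, a proliferation marker, are called Mki67-positive here. They were 104 of the control LSECs, or 2.54% (2.08 to 3.07), and 738 of the Maf LSEC-KO LSECs, or 23.4% (21.9 to 24.9). With each cell thinned to 2700 UMIs, the shares were 1.85% and 14.3%, and 406 control and 173 mutant cells that were shallower were left out. Mki67-positive cells were also deeper, with medians of 14319 and 19674 UMIs in control and mutant, against 8312 and 12821 in Mki67-negative cells.

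Promoter sequence is shown for 3 members, since the levels of Myc, p21 and the G1 kinases are set side by side below. Each run holds the 250 bases before the start given by RefSeq on GRCm38.p6, read 5′ to 3′ on the gene's strand. In Cdk4 (chr10:127063285-127063534, plus strand) and Cdk6 (chr5:3343643-3343892, plus strand), capitals mark CACGTG, the E-box that Myc bound to Max can recognise, which reads the same on both strands. In Cdkn1a (chr17:29090729-29090978, plus strand), capitals mark a p53 response element of 20 bases.
Cdk4: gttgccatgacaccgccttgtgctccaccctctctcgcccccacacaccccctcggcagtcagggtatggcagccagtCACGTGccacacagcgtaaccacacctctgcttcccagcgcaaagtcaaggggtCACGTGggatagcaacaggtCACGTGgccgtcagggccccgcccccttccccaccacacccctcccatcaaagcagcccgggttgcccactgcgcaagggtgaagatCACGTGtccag
Cdk6: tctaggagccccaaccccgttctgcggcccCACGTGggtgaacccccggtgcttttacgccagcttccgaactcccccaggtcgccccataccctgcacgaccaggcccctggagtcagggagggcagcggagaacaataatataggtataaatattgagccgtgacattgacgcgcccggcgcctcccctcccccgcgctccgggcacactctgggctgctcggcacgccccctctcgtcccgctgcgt
Cdkn1a: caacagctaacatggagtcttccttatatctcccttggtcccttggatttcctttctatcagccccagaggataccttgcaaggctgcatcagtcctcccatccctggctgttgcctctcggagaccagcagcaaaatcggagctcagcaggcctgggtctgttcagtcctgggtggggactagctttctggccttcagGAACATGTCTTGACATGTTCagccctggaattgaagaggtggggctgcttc

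The Cdk4 window held 4 copies of CACGTG, starting 172, 118, 98 and 11 bases upstream, and the Cdk6 window held 1, starting 220 bases upstream. At least 1 copy occurred in 1978 of 32851 promoter windows of the same length (6.02%), and 4 or more in 7 windows (0.0213%). The p53 element of Cdkn1a lay 51 to 32 bases upstream of the start used for the window shown. It was searched on both strands as 2 adjoining copies of the p53 consensus decamer, with at most 1 base off outside the core letters, an allowance chosen after the sequence was seen, and 15 of the windows held one (0.0457%). The RefSeq table matched 6 of the 9 genes with 8 promoters, and no other member window held either sequence. Those without a match included another Cdkn1a window, at a start further downstream (chr17:29093519-29093768). A match is a description of letters, not a measured binding site.

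Across all LSECs, 6 of the 9 genes differed between libraries by at least 1.5-fold with an interval leaving out no change. Myc, Ccnd1, Ccne1, Cdk4 and Cdkn1a were higher and Ccnd2 was lower in Maf LSEC-KO cells. By the same rule 29.8% of 8906 genes with a mean of at least 10 CPM were called, 20% as higher and 9.75% as lower. Ccne1 lay under that minimum, so 8 members passed the filter. When CPM were scaled to all UMIs rather than to those outside mitochondrial and ribosomal protein genes, 13.8% of genes were called higher and 15.6% lower, and the median log2 ratio of all genes moved from 0.12 to -0.06. The 9 members had a median log2 ratio of 1.0 in the main scaling. Genotype, depth per cell and the share of cycling cells all differed between the 2 libraries. Levels are therefore also given within Mki67-positive and Mki67-negative cells.

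**Figure D1:**
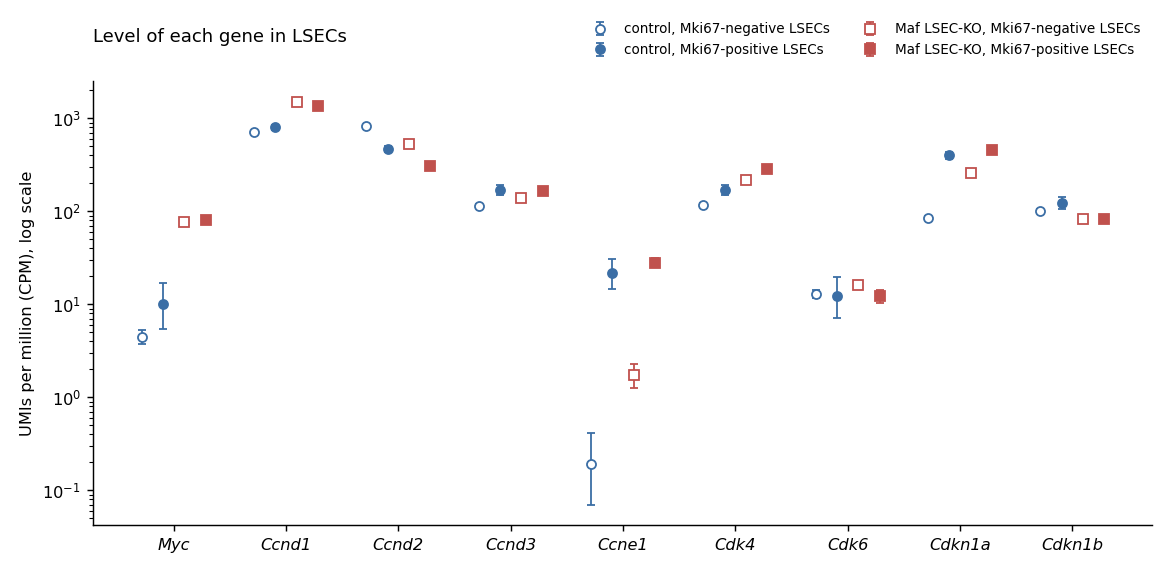
Level of the 9 genes in CPM (log axis) in Mki67-negative and Mki67-positive LSECs of the control and Maf LSEC-KO libraries. Points are sums over cells and bars are 95% counting intervals, with Myc at 4.46 and 76.7 CPM in Mki67-negative control and Maf LSEC-KO cells.

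Myc lies on mm10 chromosome 15, bases 61985391 to 61990374, plus strand. All control LSECs together had 154 Myc UMIs, a level of 4.70 CPM (3.98 to 5.50), while those of the mutant had 3074, a level of 77.9 CPM (75.2 to 80.7). The level was thus 16.6-fold higher in the Maf LSEC-KO library, and the intervals did not overlap. Myc was detected in 2.74% of control and 38.4% of Maf LSEC-KO cells, or in 0.760% and 11.7% once thinned. For reading these shares, thinned macrophage-like cells of the same libraries, with medians of 5117 and 4562 UMIs before thinning, had a Myc UMI in 2.13% and 8.59%. Macrophages use Myc and the other members too, so that no population in these libraries measured free RNA for them. The control share in LSECs lay below that of macrophage-like cells, and at 0.760% it cannot be told apart from free RNA.

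Myc differed between libraries in cells without and in cells with a Mki67 UMI. In Mki67-negative LSECs it measured 4.46 CPM in control and 76.7 CPM in Maf LSEC-KO, 17.2-fold higher (log2 ratio 4.10, 3.86 to 4.36). In Mki67-positive LSECs it measured 10.0 CPM in control, on 14 UMIs, and 80.5 CPM in Maf LSEC-KO, 8.02-fold higher (log2 ratio 3.004, 2.25 to 3.88). Within the Maf LSEC-KO library, cells with and without Mki67 had nearly the same level, with a log2 ratio of 0.07 (-0.04 to 0.18). Within the control library the ratio was 1.17 (0.26 to 1.96), and after thinning it was 0.09. Setting the Maf LSEC-KO library to the control's share of UMIs from Mki67-positive cells left the log2 ratio over all LSECs at 4.03. Myc in the mutant was spread unevenly, since the 10% of cells with the most UMIs held 55.8% of them and the highest cell had 16.

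Genes that Myc is known to activate were also higher in the Maf LSEC-KO library. Of 14 listed targets, 13 passed the filter in Mki67-negative LSECs and 13 were called higher, with a median log2 ratio of 1.42 against 0.11 over all genes tested, of which 17.2% were called higher. Npm1, a nucleolar chaperone of ribosome assembly, measured 316 CPM in control and 929 CPM in Maf LSEC-KO cells. Ncl, which encodes nucleolin, measured 352 and 643 CPM, and the translation initiation factor Eif4a1 measured 187 and 504 CPM. Odc1, the first enzyme of polyamine synthesis, had the highest log2 ratio of the tested targets at 2.62 (27.6 and 169.7 CPM), and the ribosome biogenesis factor Bop1 had the lowest at 0.76. The gene below the filter was the transferrin receptor Tfrc, named after its values of 0.828 and 7.501 CPM were seen. In Mki67-positive LSECs 12 of 13 tested targets were higher, with a median of 1.14 against 0.03 over all genes, of which 15.1% were called higher. The list was chosen with results of these data known, so its direction is a description.

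Partners and rivals of Myc that passed the filter did not show this pattern. Of 12 listed genes of the Max network, 8 were tested in Mki67-negative LSECs, 0 were higher and 1 was lower, with a median log2 ratio of -0.08. Of all genes tested there, 17.2% were called higher and 9% lower. In Mki67-positive LSECs 10 were tested, 2 were higher and 3 lower, beside 15.1% and 11.9% of all genes. Mxd4, a repressor that competes for Max, measured 397 CPM in control and 283 CPM in Maf LSEC-KO cells. Mlxip, which encodes MondoA, a glucose-responsive partner of Mlx, measured 76.4 and 49.0 CPM. Mycn, a paralogue of Myc, lay below the filter at 0.828 and 16.9 CPM and was singled out after its values were seen. Mxd3 lay below the filter too, at 0.255 and 0.980 CPM. Both were called higher, with log2 ratios of 4.35 for Mycn and 1.94 (0.76 to 3.30) for Mxd3.

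Immediate early and heat-shock genes, which respond to cell isolation, were also higher in the Maf LSEC-KO library. The summed level of 13 immediate early genes was 1632 CPM in control and 4430 CPM in Maf LSEC-KO Mki67-negative LSECs, and 11 of 12 tested were higher. Jun measured 382 and 1119 CPM. The 6 heat-shock genes summed to 1438 and 3108 CPM, and all 6 were higher. Of all genes tested in these cells, 17.2% were called higher. Mki67-negative LSECs were also split into 3 ranges of their share of immediate early UMIs, a comparison added after seeing the data. In the lowest range, where the immediate early sums were 543 CPM in 1781 control cells and 618 CPM in 353 Maf LSEC-KO cells, Myc measured 2.69 and 43.7 CPM, a log2 ratio of 4.02 (3.45 to 4.63). The ratios in the middle and highest ranges were 3.52 and 3.67. Across 3 ranges of the heat-shock share they were 4.09, 3.94 and 2.87. The part of cell handling in the level of Myc was not tested.

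Ccnd1 lies on mm10 chromosome 7, bases 144929931 to 144939925, minus strand, Ccnd2 on chromosome 6, bases 127125162 to 127152193, minus strand, and Ccnd3 on chromosome 17, bases 47505051 to 47599691, plus strand. Each overlaps another annotated gene on the opposite strand only. Cyclin D1 and cyclin D2 differed in opposite directions between the libraries. In control LSECs Ccnd1 measured 713 CPM (704 to 722), while the mutant had 1456 CPM (1444 to 1468), 2.04-fold higher. The median cell had 4 Ccnd1 UMIs in control and 12 in Maf LSEC-KO. In control LSECs Ccnd2 measured 802 CPM (792 to 812), while the mutant had 456 CPM (449 to 463), 1.76-fold lower. Ccnd3 measured 117 CPM and 147 CPM, a log2 ratio of 0.33 (0.27 to 0.39), which is under the 1.5-fold limit.

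**Figure D2:**
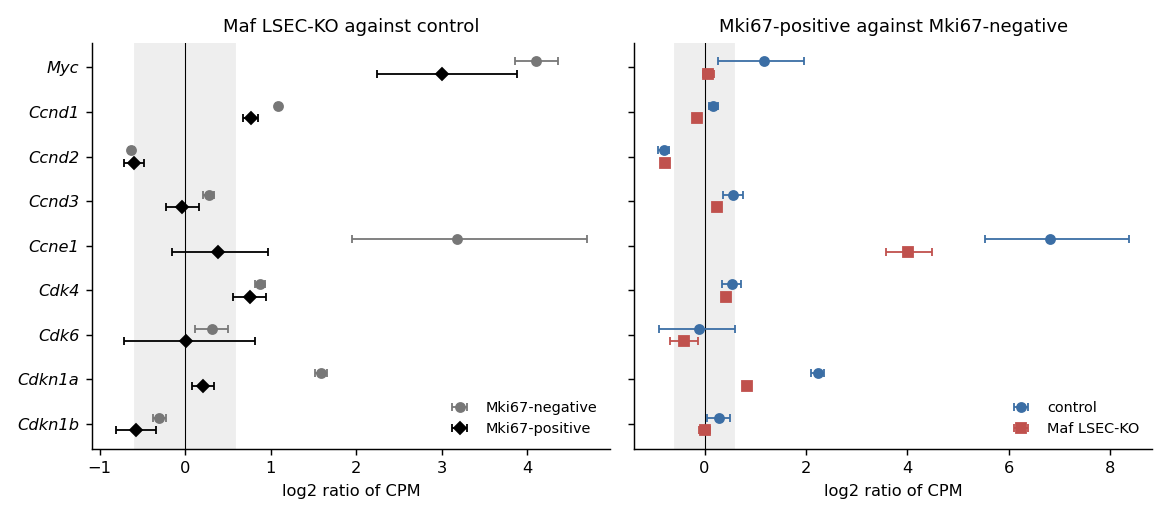
Log2 ratio of CPM for the 9 genes, between libraries within Mki67-negative and Mki67-positive LSECs, and between Mki67-positive and Mki67-negative LSECs within each library. Bars are 95% counting intervals, and Cdkn1a stands at 1.59 in Mki67-negative and 0.21 in Mki67-positive cells between libraries.

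Most LSECs of both libraries held D cyclin transcripts, so the shares of cells moved less than the levels. After thinning, a Ccnd1 UMI was found in 71.2% of control and 85.6% of Maf LSEC-KO LSECs, and a Ccnd2 UMI in 74.9% and 52.4%. For Ccnd3 the thinned shares were 24.1% and 24.4%. Thinned macrophage-like cells of the Maf LSEC-KO library showed 44.0% for Ccnd1, 16.5% for Ccnd2 and 9.97% for Ccnd3, all below the LSECs of that library. Among all D cyclin molecules of LSECs, Ccnd1 made up 43.7% in control and 70.7% in Maf LSEC-KO, and Ccnd2 49.2% and 22.1%. Ccnd3 made up 7.17% and 7.16%. The sum of the 3 genes was 1632 CPM in control and 2060 CPM in Maf LSEC-KO, so their mix differed more than their total.

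In Mki67-negative cells 6 of the 9 genes passed the 1.5-fold rule, 5 higher and 1 lower. Ccne1 lay under the filter there, and of the 8 members that passed it 4 were higher and 1 lower. Among all genes tested 26.2% were called (17.2% higher and 9% lower). In Mki67-positive cells all 9 passed the filter and 4 passed the rule, 3 higher and 1 lower. That stood beside 27% of all genes tested (15.1% higher and 11.9% lower). Higher genes made up 65.6% of all calls in Mki67-negative cells, or 43.3% when scaled to all UMIs, and 55.9% or 32.5% in Mki67-positive cells, where that scaling moved the median log2 ratio from 0.03 to -0.16. Ccnd1 was higher in both classes, at 709 and 1504 CPM without Mki67 and at 798 and 1359 CPM with it. Its log2 ratio was 1.08 in Mki67-negative and 0.77 in Mki67-positive cells, and the latter was 0.58, under the limit, when scaled to all UMIs. Ccnd2 was lower in both classes, at 817 and 528 CPM without Mki67 and at 466 and 308 CPM with it. Its log2 ratios of -0.63 and -0.60 lay close to the limit, and the former was -0.49 after thinning.

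Mki67-positive cells held less Ccnd2 than the others in both libraries. The log2 ratio of Mki67-positive to Mki67-negative LSECs was -0.81 (-0.92 to -0.70) within control and -0.78 (-0.83 to -0.73) within the mutant. With thinned cells it was -0.42 in control, under the limit, and -0.96 in the mutant. After thinning, Mki67 was found in 1.01% of control LSECs with and 4.32% without a Ccnd2 UMI, and in 7.81% and 21.5% in Maf LSEC-KO. Ccnd1 differed little between the classes, with log2 ratios of 0.17 (0.08 to 0.26) within control and -0.15 (-0.17 to -0.12) within the mutant. Ccnd3 was higher with Mki67, by 0.56 in control and 0.25 in Maf LSEC-KO on the log2 scale, both below the limit.

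Ccne1 lies on mm10 chromosome 7, bases 38097984 to 38107534, minus strand. It was nearly restricted to cycling cells, and its difference over all LSECs moved with their share. Control LSECs had 36 Ccne1 UMIs, a level of 1.10 CPM (0.769 to 1.52), while those of the mutant had 409, a level of 10.4 CPM (9.39 to 11.4). Of these UMIs, 83.3% in control and 88.8% in Maf LSEC-KO lay in Mki67-positive cells. Within Mki67-positive LSECs the levels were 21.5 CPM (14.5 to 30.7) and 28.1 CPM (25.3 to 31.1), and the log2 ratio of 0.39 (-0.15 to 0.97) included no change. At the control's share of UMIs from Mki67-positive cells, the log2 ratio over all LSECs went from 3.24 to 1.38. In Mki67-negative cells 6 UMIs in control and 46 in Maf LSEC-KO gave 0.191 and 1.73 CPM, a ratio of 9.07 with a log2 interval of 1.95 to 4.70. The ratio of Mki67-positive to Mki67-negative cells was 112-fold in control and 16.2-fold in Maf LSEC-KO.

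Cdk4 lies on mm10 chromosome 10, bases 127063534 to 127067920, plus strand, and Cdk6 on chromosome 5, bases 3341485 to 3531008, plus strand. The 2 kinases share the D cyclins as partners, but only Cdk4 passed the limit between libraries. Cdk4 stood at 120.1 CPM (116 to 124) in control cells, while the mutant had 239 CPM (235 to 244), 1.99-fold higher. Cdk6 measured 13.02 CPM (11.8 to 14.3) and 14.9 CPM (13.7 to 16.1), a log2 ratio of 0.19 (0.01 to 0.38). In Mki67-negative cells the log2 ratios were 0.87 for Cdk4 and 0.31 for Cdk6, and in Mki67-positive cells 0.75 and 0.00, the latter with an interval of -0.72 to 0.82. Thinning, which leaves fewer UMIs, brought the ratio of Cdk4 in Mki67-positive cells to 0.42. Cells with a Cdk4 UMI after thinning were 25.3% of control and 33.5% of Maf LSEC-KO LSECs, against 15.96% and 14.4% of macrophage-like cells. Cdk4 was higher with Mki67 than without it, by 0.53 in control and 0.41 in Maf LSEC-KO on the log2 scale, under the limit, while Cdk6 was at -0.10 and -0.40.

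Cdkn1a lies on mm10 chromosome 17, bases 29090976 to 29100727, plus strand, beside an annotated gene on the opposite strand. p21 transcripts were higher in the Maf LSEC-KO library and higher in cycling cells of both. Over all control LSECs Cdkn1a measured 98.6 CPM (95.2 to 102.0), while the mutant had 323 CPM (318 to 329), 3.28-fold higher. In Mki67-negative cells it measured 85.2 and 256 CPM, 3.01-fold higher (log2 ratio 1.59, 1.53 to 1.66). In Mki67-positive cells it measured 399.9 and 461 CPM, a log2 ratio of 0.21 (0.08 to 0.33) that is under the limit. The difference between libraries was thus smaller in cycling cells, by 1.38 on the log2 scale (1.24 to 1.53). The corresponding gap was 1.10 for Myc (0.30 to 1.90) and 2.80 for Ccne1 (1.46 to 4.14), both on few control UMIs.

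Within the control library Cdkn1a was 4.70-fold higher in Mki67-positive than in Mki67-negative LSECs (log2 ratio 2.23, 2.10 to 2.36), and within the Maf LSEC-KO library 1.80-fold higher (0.85, 0.80 to 0.90). In control cells 4 of the 9 genes passed the limit between the classes, 3 higher and 1 lower. Myc lay under the filter there, and of the 8 members that passed it 2 were higher and 1 lower. Among all genes tested 16.1% were called (12.3% higher and 3.84% lower). In Maf LSEC-KO cells all 9 passed the filter and 3 the limit, 2 higher and 1 lower, beside 8.61% (7.21% higher and 1.4% lower). The genes past the limit in both libraries were Ccne1, Cdkn1a and Ccnd2, joined in control by Myc on 14 UMIs, and the control calls of Ccnd2 and Myc were lost after thinning. After thinning, Mki67 was found in 8.82% of control LSECs with and 0.839% without a Cdkn1a UMI, and in 23.0% and 9.995% in Maf LSEC-KO. A few cells held most p21 transcripts of the control library, since the top 10% of its LSECs had 81.6% of the UMIs, against 52.4% in Maf LSEC-KO. Cells with a Cdkn1a UMI were 22.6% and 63.3%, and 12.6% and 33.3% after thinning, beside 12.2% and 6.53% of macrophage-like cells.

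Cdkn1a was higher in the Maf LSEC-KO library across the range of stress transcripts, with a ratio that moved with them. In the lowest range of immediate early genes it measured 66.0 CPM in control and 125 CPM in Maf LSEC-KO Mki67-negative LSECs, a log2 ratio of 0.92 (0.73 to 1.12), and in the middle and highest ranges the ratios were 1.20 and 1.27. Across the ranges of heat-shock genes the ratios were 0.70, 1.55 and 1.99. Ccnd1 showed 0.92, 1.02 and 1.40 across the immediate early ranges, Cdk4 0.64, 0.85 and 0.99, and Ccnd2 -0.41, -0.60 and -0.43. All these ratios except those of Ccnd2 were lowest where the stress genes were lowest, and the part of cell handling in them was not tested.

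Other p53 targets were mostly higher in Mki67-negative cells of the mutant. Of 16 listed genes, 13 were tested in Mki67-negative LSECs, 8 were higher and 2 lower. Their median log2 ratio was 0.68 against 0.11 over all genes, of which 17.2% were called higher and 9% lower. Bax, a mediator of apoptosis, measured 164 CPM in control and 311 CPM in Maf LSEC-KO cells. Plk2 measured 331 and 529 CPM. Phlda3, an inhibitor of AKT, had the highest ratio of the tested genes at 2.31, and the death receptor Fas the lowest at -0.81 (117 and 66.8 CPM). The other gene called lower was Sesn1, at 53.9 and 33.2 CPM, named after its values were seen. In Mki67-positive cells 5 of 13 tested were higher (Bax, Bbc3, Phlda3, Aen and Plk2), 2 lower (Fas and Trp53inp1) and 6 neither. The median was 0.26 against 0.03 over all genes, of which 15.1% were called higher and 11.9% lower. None of the 12 listed genes matched to promoters held the p53 element in its window.

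Cdkn1b lies on mm10 chromosome 6, bases 134920401 to 134925513, plus strand. p27 transcripts differed little between libraries. Control LSECs held 102 CPM of Cdkn1b (98.7 to 105.6), while the mutant had 82.2 CPM (79.4 to 85.1), 1.24-fold lower. In Mki67-negative cells the log2 ratio was -0.30, and in Mki67-positive cells, at 123 and 82.5 CPM, it was -0.58 (-0.81 to -0.34), just under the limit. In 8 of the alternatives it was past the limit there, at -0.59 to -0.77. The share of cells with a Cdkn1b UMI after thinning was 20.5% in control and 15.95% in Maf LSEC-KO. The other CDK inhibitors were split, with 4 of 5 tested in Mki67-negative cells, 1 higher and 1 lower. Of all genes tested there, 17.2% were called higher and 9% lower. Cdkn1c, which encodes p57, measured 76.7 CPM in control and 18.2 CPM in Maf LSEC-KO cells, and Cdkn2a, which encodes p16 and p19ARF, measured 5.54 and 33.1 CPM. In Mki67-positive cells 3 of 4 tested were lower (Cdkn1c, Cdkn2c and Cdkn2d) and 0 higher, with a median log2 ratio of -0.72. Of all genes tested in those cells, 15.1% were called higher and 11.9% lower.

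Genes acting next to the members were also counted in Mki67-negative LSECs, among those of at least 10 CPM on average. Of all genes tested there, 26.2% passed the limit (17.2% higher and 9% lower). Below that level E2f1, E2f2, E2f8, Ccna2 and Pik3ip1 were called higher and Gas1 lower, named after their values were seen. Ccne2 and Cks1b were called higher there too. The log2 ratios were 1.34 for E2f1, 1.49 for E2f2, 1.92 for E2f8, 1.93 for Ccna2 and 2.61 for Ccne2. Of 13 genes of the Rb and E2F group, 10 were tested, 2 were higher and 0 lower, with a median log2 ratio of 0.18. Rb1 stood at -0.24, E2f4 at 0.20 and Tfdp2 at 0.27, while Tfdp1, which encodes the dimer partner of E2F factors, was the highest of the tested genes at 1.42 (7.33 and 19.6 CPM) and the retinoblastoma relative Rbl2 the lowest at -0.52. The other gene called higher was the E2F factor E2f7, at 17.0 and 26.6 CPM, named after its values were seen. Of 6 other G1 and S entry genes, 4 were tested and 1, the phosphatase Cdc25a, was higher at 16.1 and 29.9 CPM. Ccnh and Cdk7, parts of the CDK-activating kinase, stood at 0.23 and 0.40. Of 9 genes for the turnover of cyclins and inhibitors, 7 were tested, and 1 was higher. That was Fbxo31, which encodes an F-box protein, at 10.6 and 16.4 CPM, named after its value was seen. Cks1b, which helps SKP2 recognise p27, lay below the filter at 2.36 and 13.9 CPM, and Rbx1, Cul1 and Fbxw7 stood at log2 ratios of 0.48, 0.08 and 0.17. Of 10 quiescence and FoxO genes, 8 were tested, 2 were higher and 1 lower. Txnip, an inhibitor of thioredoxin, measured 1244 CPM in control and 767 CPM in Maf LSEC-KO cells, and the antiproliferative gene Btg1 measured 85.5 and 216 CPM. The other gene called higher was Tob1, of the same family, at 15.6 and 24.7 CPM, named after its values were seen.

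Some S phase genes were higher even in Mki67-negative cells of the mutant. Of 41 listed, 27 were tested, 14 were higher, 0 lower and 13 neither, with a median log2 ratio of 0.63. Over all genes tested the median was 0.11, and 17.2% were called higher and 9% lower. Of 51 G2/M genes 16 were tested, 5 were higher and 11 neither. The 5 were Hmgb2, Cdk1, Top2a, Cks2 and Cenpa, named after their values were seen. Cells without a Mki67 UMI thus included cells with other cycle transcripts. Between Mki67-positive and Mki67-negative cells, 37 of 39 tested S phase genes were higher in control and 38 of 40 in Maf LSEC-KO, and for G2/M genes 49 of 49 and 50 of 50 were, lists that follow from how the classes were made.

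Mki67-positive cells were then placed along the ratio of G2/M to S phase UMIs, in 3 ranges with nearly equal numbers of Maf LSEC-KO cells (246, 245 and 247, beside 34, 33 and 37 control cells). These are ranges and not cell types, and 71 Maf LSEC-KO and 6 control cells lay within 0.1 log2 of a limit. In the Maf LSEC-KO library Ccne1 measured 34.2 CPM in the range weighted to S phase, 42.7 CPM in the middle and 7.33 CPM in the range weighted to G2/M. Control cells gave 20.9, 40.9 and 7.27 CPM, on 9, 17 and 4 UMIs. In both libraries the intervals of the S phase and middle ranges overlapped. The log2 ratio of the G2/M to the S phase range was -2.22 (-2.83 to -1.66) in Maf LSEC-KO. In control it was -1.53 (-3.68 to 0.31), which included no change. Ccnd1 measured 1747, 1228 and 1059 CPM in Maf LSEC-KO and 1178, 690.5 and 582 CPM in control cells. Ccnd2 was lower towards G2/M too, at 399.9, 309.7 and 204 CPM in Maf LSEC-KO and 740.2, 440.3 and 273 CPM in control.

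The inhibitors were ordered the other way. Cdkn1b measured 63.5, 67.6 and 118 CPM along the ranges in Maf LSEC-KO and 72.2, 96.2 and 184 CPM in control. Cdkn1a measured 407, 488 and 495 CPM in Maf LSEC-KO and 219, 561 and 419.8 CPM in control, where the range weighted to S phase was the lowest. Myc in Maf LSEC-KO cells measured 99.01, 70.8 and 69.3 CPM, and control cells had 11, 2 and 1 Myc UMIs. Cdk4 measured 299.6, 294 and 268 CPM in Maf LSEC-KO cells, a smaller spread than that of any cyclin.

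**Figure D3:**
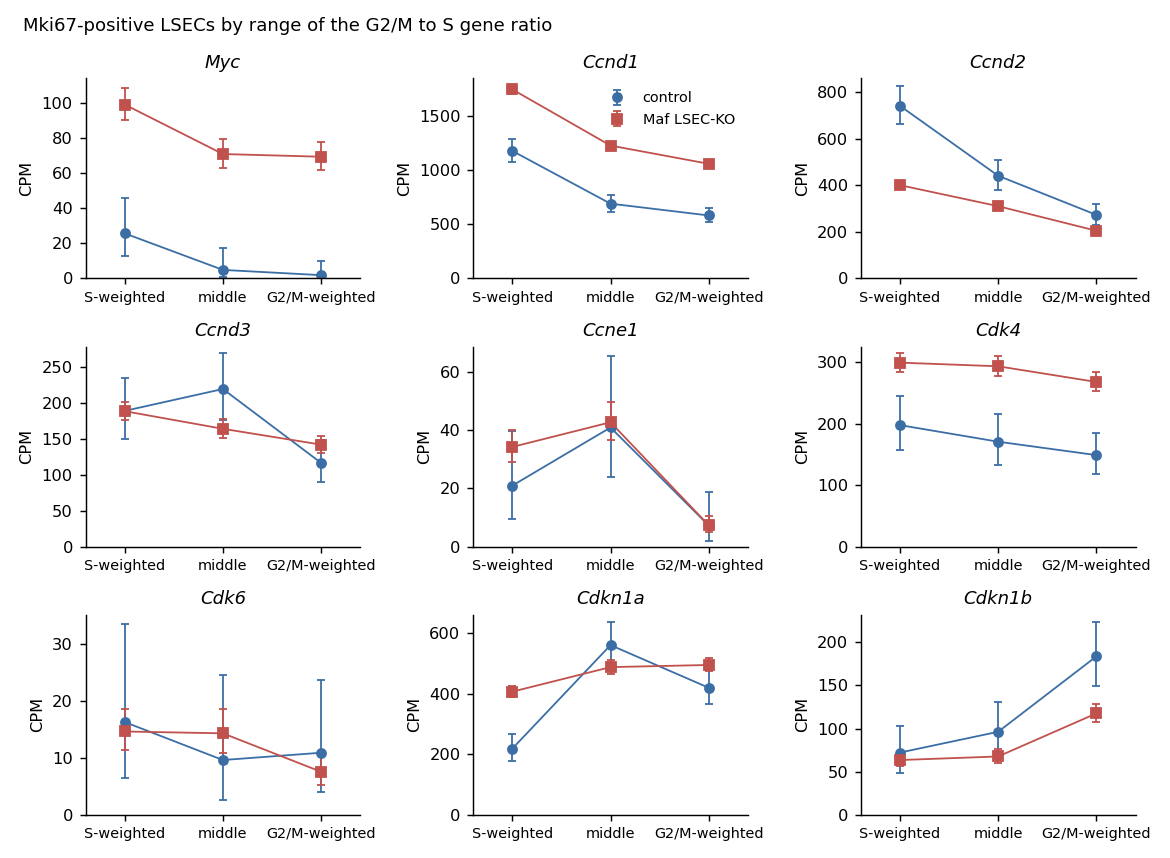
Level in CPM (linear axis from 0) of the 9 genes in Mki67-positive LSECs in 3 ranges of the G2/M to S gene ratio, control and Maf LSEC-KO. Bars are 95% counting intervals, and Ccne1 stands at 7.33 CPM in the Maf LSEC-KO range weighted to G2/M while Cdkn1b reaches 118 CPM.

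Some cells of the Maf LSEC-KO library still held Maf transcripts. Of its Mki67-negative LSECs, 1900 had 0 Maf UMIs, 245 had 1 and 274 had at least 2, with medians of 12823, 15783 and 10606 UMIs per cell. Myc measured 79.1, 94.1 and 38.7 CPM in these classes, against 4.46 CPM in control cells, so cells with at least 2 Maf UMIs stood 8.67-fold above control. Ccnd2 measured 476, 454 and 994 CPM, and the cells with at least 2 Maf UMIs lay 0.28 above control on the log2 scale rather than below it. Cdk6 measured 14.7, 13.8 and 29.8 CPM, and Cdk4 223, 204 and 179 CPM. Ccnd1 showed no such order, at 1497, 1518 and 1533 CPM, and Cdkn1a measured 257, 275 and 233 CPM, all above the control's 85.2 CPM. The log2 ratio of cells with 0 to cells with at least 2 Maf UMIs was 1.03 for Myc, -1.06 for Ccnd2 and -1.02 for Cdk6. For Ccnd1 and Cdkn1a it was -0.03 and 0.14. Over all LSECs of that library it was 0.52 for Myc, under the limit, -0.99 for Ccnd2 and -0.78 for Cdk6. Myc was highest in cells with 1 Maf UMI, so it did not follow Maf in order.

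**Figure D4:**
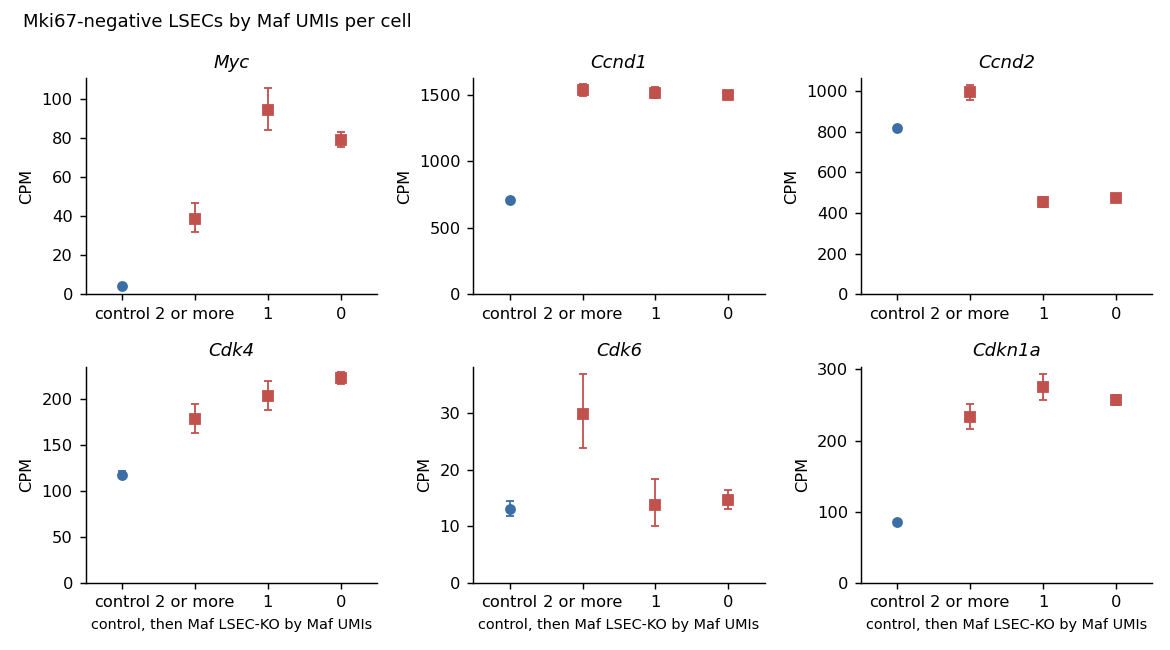
Level in CPM (linear axis from 0) of 6 of the 9 genes in control Mki67-negative LSECs and in Maf LSEC-KO Mki67-negative LSECs with 2 or more, 1 and 0 Maf UMIs. Bars are 95% counting intervals, and Ccnd2 stands at 994, 454 and 476 CPM in these Maf LSEC-KO classes.

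The Maf UMIs were concentrated in 1 cluster of the Maf LSEC-KO library, with 201 LSECs, 2332 CPM of Maf and 2.49% Mki67-positive cells. In it Myc measured 20.4 CPM, Ccnd1 1603 CPM, Ccnd2 1331 CPM, Cdk6 38.4 CPM and Cdkn1a 218 CPM. Since clusters were made from all genes, these values are a description. Why these cells held Maf transcripts was not tested. In the control library 1 cluster of 931 LSECs led by interferon-induced genes had 155 CPM of Cdkn1a, against 36.3 to 67.4 CPM in the other clusters with few Mki67-positive cells.

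Endothelial cells with a Vwf UMI were 161 in control and 1008 in Maf LSEC-KO, 3.79% and 24.2% of all endothelial cells. Myc, Ccnd1, Cdk4 and Cdkn1a were higher in those of the Maf LSEC-KO library, as in LSECs. Myc measured 2.31 CPM in control, on 4 UMIs, and 53.6 CPM in Maf LSEC-KO (log2 ratio 4.53, 3.17 to 6.41). Ccnd1 measured 318 and 1192 CPM, Cdk4 115 and 212 CPM, and Cdkn1a 78.1 and 219.8 CPM. Ccnd2 measured 741 and 537 CPM, a log2 ratio of -0.46 that is under the 1.5-fold limit. Ccne1 had 0 UMIs in control, which allows a level of up to 1.74 CPM, and 82 UMIs in Maf LSEC-KO, or 5.32 CPM. Whether the Vwf-positive cells of both libraries came from the same vessels was not tested.

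**Figure D5:**
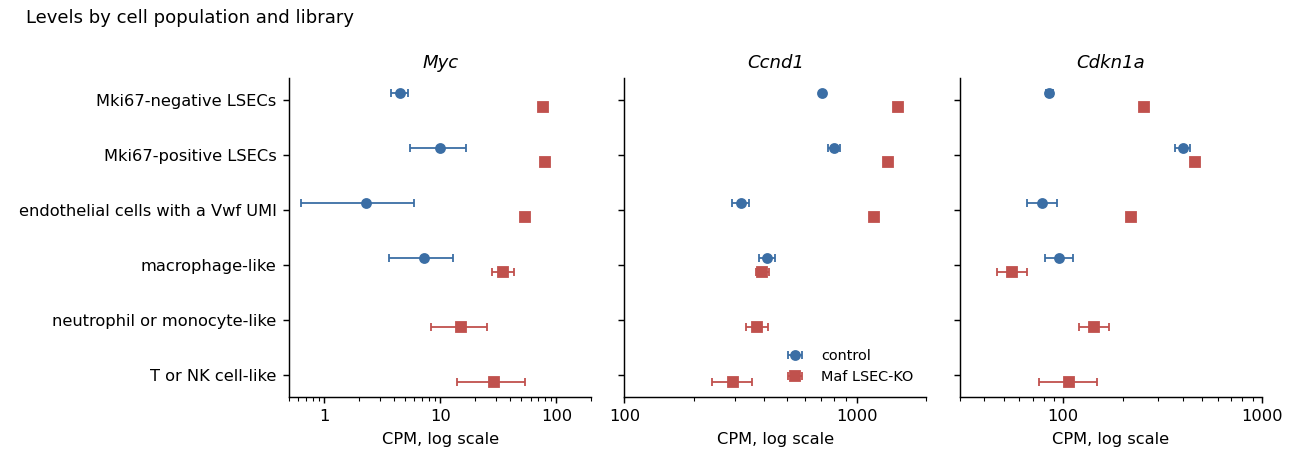
Level in CPM (log axis) of Myc, Ccnd1 and Cdkn1a in each cell population with at least 50 cells, by library. Bars are 95% counting intervals, and macrophage-like cells stand at 412 and 392 CPM of Ccnd1 in control and Maf LSEC-KO.

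Macrophage-like cells, which do not carry the deletion by design, numbered 220 in control and 391 in Maf LSEC-KO. Myc measured 7.25 CPM in control, on 11 UMIs, and 35.1 CPM in Maf LSEC-KO, a log2 ratio of 2.27 (1.36 to 3.33). Ccnd2 was lower there too, at 269 and 144 CPM (log2 ratio -0.90, -1.11 to -0.69), and Ccne1 had 0 and 9 UMIs. Cdk4, at -0.27 (-0.64 to 0.11), and Cdkn1b, at -0.41, were under the 1.5-fold limit. Ccnd1 measured 412 and 392 CPM, a log2 ratio of -0.07, and Cdkn1a 95.6 and 55.2 CPM, a log2 ratio of -0.79. Ccnd3 measured 92.95 and 48.3 CPM, a log2 ratio of -0.94. Their immediate early genes summed to 2483 CPM in control and 1855 CPM in Maf LSEC-KO, the reverse of the order in LSECs. Clec4g, an LSEC marker, measured 944 and 211 CPM in macrophage-like cells, so transcripts of an LSEC marker were counted in their droplets.

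Ordered by level over 10 combinations of population and library, Myc was highest in Mki67-positive and Mki67-negative Maf LSEC-KO LSECs, whose intervals overlapped, followed by Maf LSEC-KO Vwf-positive cells. Ccnd1 was highest in the 3 Maf LSEC-KO endothelial classes, and Cdkn1a in Mki67-positive LSECs of Maf LSEC-KO and control, in that order. Ccnd3 was highest in 62 T or NK cell-like cells of the Maf LSEC-KO library at 397 CPM, where Ccnd2 stood at 798 CPM, next to control LSECs. Cdk6 was higher in macrophage-like cells, at 33.6 CPM in control and 48.8 CPM in Maf LSEC-KO, than in Mki67-positive or Mki67-negative LSECs. Single Maf LSEC-KO clusters, of 201 and 54 LSECs, reached 38.4 and 52.9 CPM. The neutrophil or monocyte-like cells of the Maf LSEC-KO library, 156 in all, had 177 CPM of Cdkn1b, and their immediate early genes summed to 20901 CPM.

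Over these 10 sums, the genes whose log2 level was most like that of Myc were Nsun2 (Pearson r 0.974), Gnl3 (0.970) and 1110038B12Rik (0.9502). Gnl3 encodes nucleostemin, a nucleolar protein, and is a Myc target of the list used here. For Ccnd1 they were Luc7l (0.954), Pck2 (0.953) and Hlx (0.947), and for Cdkn1a they were Larp1b (0.954), Cnih4 (0.943) and Calm3 (0.936). The sums share libraries, so that these correlations describe 10 points that are not independent.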

How the data were processed

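Single-cell suspensions of CD146-enriched liver cells were sequenced by 10x 3′ chemistry, 1 library per condition and 3 pooled mice per library. The deposited files hold raw UMI counts per gene and barcode, which the authors made with Cell Ranger 6.0.2 against mm10 per the submitters' processing notes, which also name Seurat 5.0.1. The genes, symbols and barcodes were read from the deposited tables. A barcode needed 1500 UMIs and 750 genes, the minimum in the study's methods. The subtraction of empty-droplet RNA described there was not repeated.

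Cells were clustered per library in Seurat 5.3.0 (R 4.3.3) on 2000 variable genes, with 16 control and 20 Maf LSEC-KO principal components at resolution 0.3. Doublet scores came from Scrublet in scanpy 1.11.5. Its automatic limit marked 0 cells, so the 225 control and 308 Maf LSEC-KO cells with the highest scores, an expected 4.53% and 5.67%, were removed, a rule chosen after seeing the scores. A cluster was endothelial where 50% or more of its cells had a UMI of Pecam1 and the same held for 7 or more of 14 endothelial genes. In addition, none of Adgre1, Clec4f, Ptprc, Cd52, Acta1 and Arg1 could be found in more than 50% of its cells. Candidate clusters led by genes of other cell types, with 150 control and 274 Maf LSEC-KO cells, were left unnamed after seeing the data. Other clusters were named from marker lists, with at least 3 detected markers. Cell names were thus rebuilt, and shares may differ from those of the study.

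Counts were summed over cells and scaled to CPM over UMIs outside mitochondrial and ribosomal protein genes. Ratios carry exact 95% intervals from the binomial split of the UMIs, levels exact Poisson intervals and shares exact Clopper-Pearson intervals, and the difference of 2 log2 ratios a normal counting interval. UMIs of 1 library are not independent mice, so intervals cover counting error only. A gene was called at 1.5-fold or more with an interval leaving out no change, and all genes of at least 10 CPM on average formed the background. A level of 0 was given an upper limit of 3 counts. Shares and classes were recomputed with each cell thinned to 2700 UMIs.

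Members and gene lists were chosen with earlier results of these data known. All members are described, and from each list the 3 genes with the highest mean CPM and the highest and lowest ratio in Mki67-negative LSECs could be named. Other genes behind counts of 5 or fewer were named after their values were seen. The 3 genes most like Myc, Ccnd1 and Cdkn1a were taken by Pearson correlation of log2(CPM + 5). Promoter windows came from a RefSeq table of GRCm38.p6, and gene positions from the mm10 annotation GENCODE M21. Calculations used Python 3.11.15, numpy 2.4.6, pandas 2.3.3, scipy 1.17.1 and matplotlib 3.10.9, with TMM factors from edgeR 4.0.16, and were tested on simulated data. Alternatives covered scaling, thinning, the Mki67 class, cell filters, doublets and the fold limit. No test between conditions was possible with 1 library in each.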

Additional observations from a re-analysis of the deposited data

Results flagged for a closer look

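The ratio of Mki67-positive to Mki67-negative LSECs differed in sign between libraries for Ccnd1, at 0.17 in control and -0.15 in Maf LSEC-KO on the log2 scale, each with an interval that leaves out 0. Ccnd3 was higher in Maf LSEC-KO than in control Mki67-negative LSECs, with a log2 ratio of 0.28, and lower in macrophage-like cells, at -0.94. Cdkn1a likewise stood at 1.59 in Mki67-negative LSECs and at -0.79 in macrophage-like cells. These differences between groups were not tested, since each condition had 1 library.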

How the results depend on the processing

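No paired analysis was possible because each condition had 1 library. The count of members past the limit was computed under 17 alternatives for each of the 5 comparisons. It ranged from 4 to 6 in all LSECs and in Mki67-negative LSECs (6 in the main setting of each), from 1 to 5 in Mki67-positive LSECs (4) and from 3 to 6 and 1 to 4 for Mki67-positive against Mki67-negative cells of the control (4) and Maf LSEC-KO library (3). In Mki67-positive cells between libraries the count was 2 with the mean over cells of CPM and 1 with a fold of 2, and between the Mki67 classes of the mutant it was 1 with a fold of 2. The background was then 13.2%, 10.7%, 10.8%, 7.47% and 4.73% in the order of the comparisons. It was 15.98% in Mki67-positive cells after thinning and 13.5% between the classes of the mutant with the Mki67 class from thinned counts.

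Of 718 member ratios under 16 settings, 366 belonged to members called in the main setting, of which 350 kept the call, 16 lost it and 0 reversed, and 21 of 352 others were called. The log2 ratio of Myc between libraries ranged from 3.87 to 4.08 in all LSECs, from 3.91 to 4.17 in Mki67-negative and from 2.66 to 4.02 in Mki67-positive cells. In Mki67-positive cells Ccnd2 lost its call under 6 settings (-0.45 to -0.58), Cdk4 under 3 (0.42 to 0.56) and Ccnd1 under 2 (0.58 when scaled to all UMIs and 0.51 as a mean over cells). Ccnd2 in Mki67-negative cells lost its call with thinning (-0.49) and with Vwf-positive cells kept (-0.56). Between Mki67 classes of the control library, Myc lost its call with thinning (0.09) and Ccnd2 likewise (-0.42), while Ccnd3 was called under 6 settings and Cdk4 under 4. The cause of these moves was not tested. Keeping all candidate endothelial clusters, a stricter Mki67-negative class, the stress ranges and the Vwf-positive and macrophage-like populations were alternatives chosen after seeing the data. Mki67-positive LSECs were 1.81% and 16.1% of control and Maf LSEC-KO cells from 2 Mki67 UMIs, and 2.46% to 2.81% and 22.3% to 24.5% under the cell filters. Control Mki67-positive cells were few, and their 14 Myc and 30 Ccne1 UMIs limit both ratios.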

Other observations

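Levels also varied among clusters within a library, which were made from all genes, so the values are descriptions. In the Maf LSEC-KO library, the cluster with the most Mki67-positive cells (78.1% of 631 LSECs) had 35.3 CPM of Ccne1, 323 CPM of Cdk4 and 489 CPM of Cdkn1a. In the control library, the corresponding cluster, with 37.2% Mki67-positive cells, had 242 CPM of Cdkn1a. Ccnd1 ranged over control clusters from 334 to 1136 CPM. Both ends were clusters of shallow cells, of 458 and 576 LSECs with medians of 3228 and 3292 UMIs. Erythroid genes such as Hbb-bs led the first, and the genes leading the second included Apoa1, a hepatocyte marker. Over the other control clusters Ccnd1 ranged from 361 to 1019 CPM.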
